A study of Drosophila melanogaster with 4 samples.

Results

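The genes described here encode the proteins of the mitochondrial ribosome in Drosophila melanogaster. They were chosen by name, as every gene whose name begins with mRpL (large subunit) or mRpS (small subunit). The rule uses no measured value, but earlier results of these data were known when it was set. The rule found 73 of the 17559 genes in the table, 47 mRpL and 26 mRpS. RNA-seq libraries were made from wing imaginal discs of Paip1 mutant larvae in the third instar (2 libraries) and of y w larvae of the same stage and tissue as the control (2 libraries). Paip1 encodes a protein that binds the poly(A)-binding protein and takes part in translation, and y w is a laboratory stock with pigmentation mutations. The allele of Paip1, whether the mutant larvae also carry y and w, and the other details of their background were not given in the sources used here, so the Paip1 mutation and the stock cannot be told apart. Replicates carry numbers, and no label ties them to separate larvae or dissections. The p-values therefore speak of the scatter among 4 libraries, and that scatter may be technical.

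Mitochondria keep their own ribosome, which descends from that of a bacterial ancestor and makes the few proteins that the mitochondrial genome encodes, all of them membrane subunits of the respiratory chain and the ATP synthase. The ribosomal RNAs come from that genome, but every protein of the particle is encoded in the nucleus, made in the cytosol and imported. Some of these proteins have counterparts in bacterial ribosomes and others were added in mitochondria. In flies, mRpL12 is known for being needed when Cyclin D and Cdk4 drive cell growth, and the wing disc is an organ of fast growth in the larva.

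Levels are in TPM (a transcript's share of its library, corrected for transcript length), as deposited. The listed TPM summed to 919460 and 936038 in the mutant libraries, against 995750 and 996531 in the control libraries. Paip1 itself, listed under its older name CG8963, was at 2.37 and 2.22 TPM in the mutant libraries and at 112 and 121 TPM in the control libraries. All 8 wing disc markers were detected, and all 8 fell. For markers, rose and fell refer to the test described below, in which 15.6% of all genes tested rose and 29.1% fell. Their summed level was 438 and 541 TPM in mutant libraries, against 974 and 959 TPM in control libraries. All 5 markers of differentiated muscle rose, with sums of 165 and 105 TPM in mutant libraries and 14.0 and 24.1 TPM in control libraries. Of the 4 markers of adult muscle precursors 3 fell, with sums of 17.8 and 24.5 TPM in mutant libraries and 81.7 and 70.7 TPM in control libraries. The 4 salivary gland glue genes summed to 2.13 and 2.87 TPM in mutant libraries, and to 3199 TPM in control replicate 1 against 1.72 TPM in control replicate 2. The 4 fat body markers summed to 121 and 35.0 TPM in mutant libraries and to 1158 and 430 TPM in control libraries, again highest in control replicate 1. Of the 5 hemocyte markers 2 rose, and of the 4 tracheal markers 1 rose and 1 fell. The 2 hemocyte markers, Hml and NimC1, were at 3.62 TPM or less in every library, and srp was too low to be tested. Of the 4 testis markers 1 rose, with sums of 11.3 and 7.6 TPM in mutant libraries and 0.79 and 0.59 TPM in control libraries. Most of the mutant sums came from the marker that rose, topi, at 9.20 and 5.89 TPM. vas did not pass, and comr and bam were too low to be tested. Several of these marker sums moved with the comparison described below, while the glue genes set control replicate 1 apart. The part of these markers in the comparison was not tested. In bulk tissue, fewer cells of a type and less RNA per cell cannot be told apart.

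All 73 mitochondrial ribosomal protein genes were expressed in every library, at moderate and rather even levels. Their median was 46.9 and 52.4 TPM in the mutant libraries, against 50.8 and 57.2 TPM in the control libraries. Averaged over the 4 libraries, the members ran from 26.2 TPM for mRpL10 to 130.2 TPM for mRpL12, with a median of 53.2 TPM, while the median over all 8605 genes tested was 25.8 TPM. The proteins are used in equal numbers in the ribosome, with the exception of the mRpL12 stalk protein, which in ribosomes is present in several copies.

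The 5 members with the highest mean level were mRpL12, mRpL27, mRpL30, mRpL33 and mRpL42. mRpL12, whose bacterial counterpart forms the flexible stalk that recruits translation factors, was at 108 and 124 TPM in the mutant libraries, against 128 and 160.0 TPM in the control libraries. Its groups did not overlap, and the log2 fold change was −0.30 with a standard error of 0.15, which did not pass the test (limma adjusted p = 0.155). mRpL27, whose bacterial counterpart reaches toward the peptidyl transferase centre, was at 114 and 123 TPM in mutant libraries and at 116 and 147 TPM in control libraries. Its groups overlapped and its log2 fold change was −0.14 (limma adjusted p = 0.458). mRpL10, which anchors the stalk and was the lowest member by mean level, was at 24.5 and 27.7 TPM in mutant libraries and at 24.9 and 27.5 TPM in control libraries. The 2 stalk proteins thus stood at opposite ends of the order of mean levels.

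**Figure D1:**
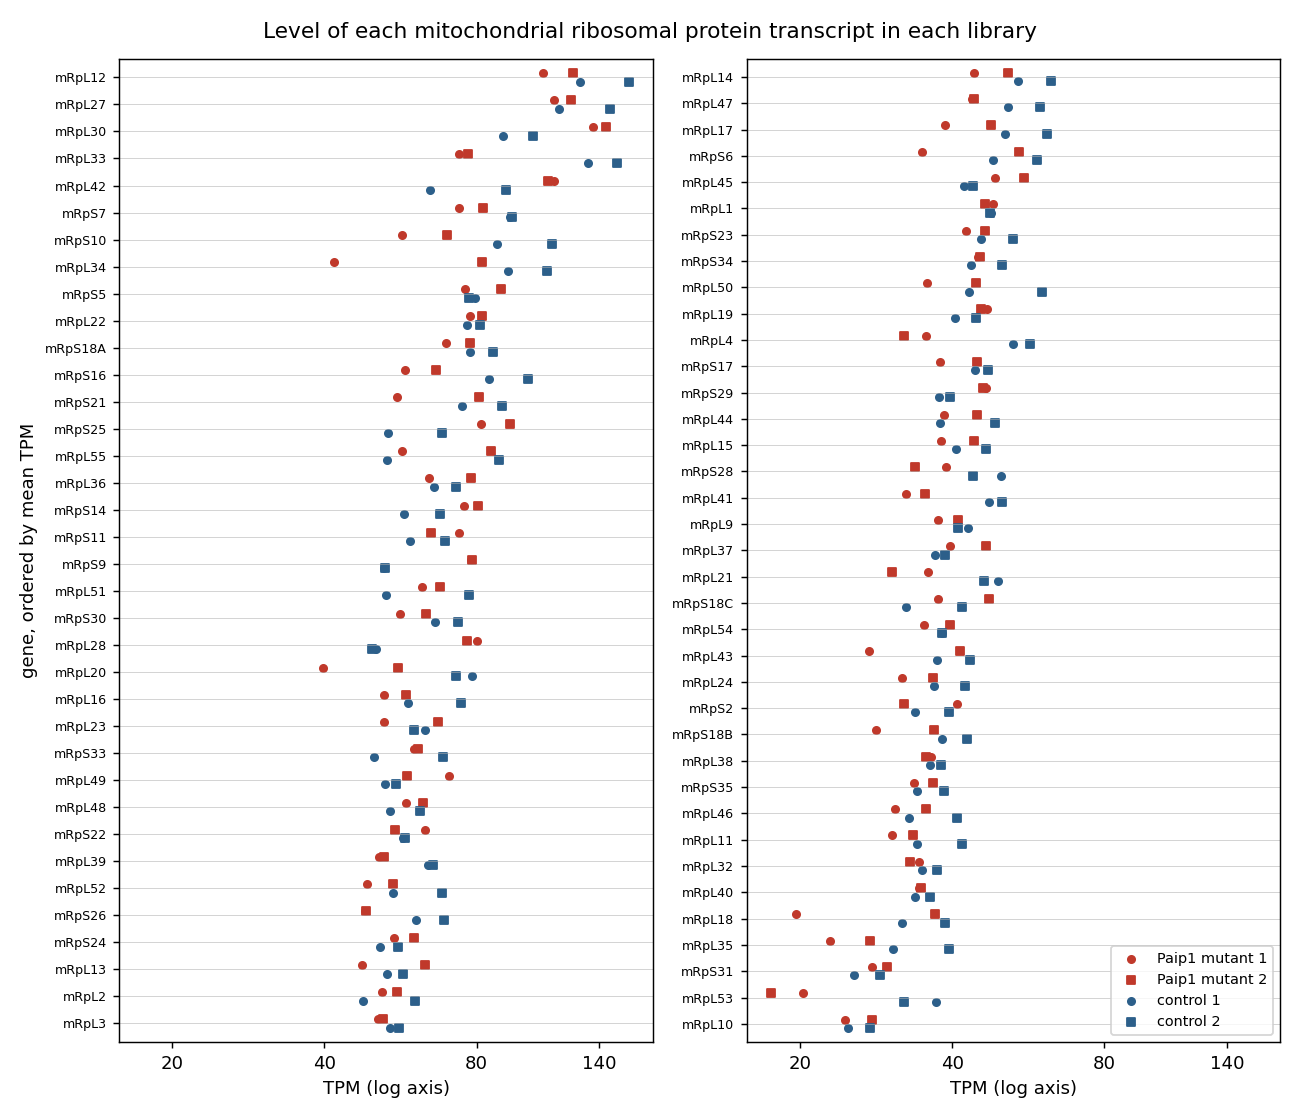
Level of each of the 73 members in each library, in TPM on a log axis, with 1 point per library and the mutant libraries in red above the control libraries in blue. The members run from 26.2 TPM (mRpL10) to 130.2 TPM (mRpL12) by mean, and in 35 of them the libraries of the groups overlap.

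The members as a group took 0.409% and 0.445% of the listed TPM in the mutant libraries, against 0.401% and 0.458% in the control libraries. The mutant values lay inside the range of the control values. In TPM as deposited, their sum was 3761 and 4169 TPM in mutant libraries and 3991 and 4561 TPM in control libraries, and here too the groups overlapped. The summed transcript level of the mitochondrial ribosomal proteins therefore did not separate mutant from control discs, while single members did.

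Each gene was tested with limma on log2(TPM + 1), with a Benjamini-Hochberg adjusted p under 0.05 over all 8605 genes as the threshold. Of the 73 members 4 rose in the mutant (5.48%, against 15.6% of all genes tested), 9 fell (12.3%, against 29.1% of all genes tested) and 60 did not pass. The share called in either direction was thus 17.8% of the members, against 44.8% of all genes tested. The changes were also small: 7 members (9.59%) differed by 1.5-fold or more, against 36.6% of all genes tested, and 0 members differed by 2-fold or more, against 17.6%. The median size of the log2 difference, without its sign, was 0.22 among members and 0.44 among all genes tested. In 35 members the mutant and control libraries overlapped, while the groups did not overlap for 77.9% of all genes tested. In 11 members both mutant libraries lay above both control libraries and in 27 both lay below, against 25.1% and 52.8% of all genes tested.

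Genes expressed at like levels were called more often than the members. Among the 3314 other tested genes whose mean lay within the range of the members, 404 rose and 1158 fell, with a median log2 fold change of −0.28. At an unadjusted p under 0.05, 18 members and 4753 of all genes tested were counted.

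The direction of the members as a group depended on how the libraries were scaled. In TPM as deposited, their median log2 fold change was −0.090, against −0.22 for all genes tested, and with median-ratio scaling, which puts the typical gene at the same level in every library, it was 0.081, against −0.053 for all genes tested. The members' median lay 0.13 above that of all genes in both, a distance that scaling hardly moves, and 0.051 above it without control replicate 1. It depended on the expression filter: with no filter the median of all genes was 0, and the members lay 0.090 below it. With median-ratio scaling 9 members were higher (background 20.3%) and 7 lower (background 20.2%, and 40.5% in either direction), and with every library brought to a common sum 7 were higher (background 17.6%) and 5 lower (background 22.1%). As deposited, 24 members had a positive and 49 a negative log2 fold change, and over all genes tested the split was 2968 positive and 5637 negative. With median-ratio scaling 44 members were positive and 29 negative, against 3912 positive and 4665 negative over all genes. Of the 13 members called, 11 were called in the same direction with median-ratio scaling. The exceptions were mRpL21 and mRpS26, which no longer passed. With a common sum 9 of the 13 were called in the same direction. There mRpL20 (adjusted p = 0.0520), mRpS10 (0.0510), mRpL21 (0.0523) and mRpS26 (0.0755) did not pass.

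The counts also rested on the control libraries. Without control replicate 1, 0 members were called higher and 4 lower, and the count over all genes tested was 1857 in place of 3852. Without control replicate 2, 1 was higher and 2 lower, with 1828 called over all genes. Without mutant replicate 1, 3 members were higher and 6 lower, with 931 higher and 1835 lower of 8109 genes tested. Without mutant replicate 2, 4 members were higher and 15 lower, with 938 higher and 2932 lower of 8117 genes tested. None of the 13 called members changed sign in these fits.

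**Figure D2:**
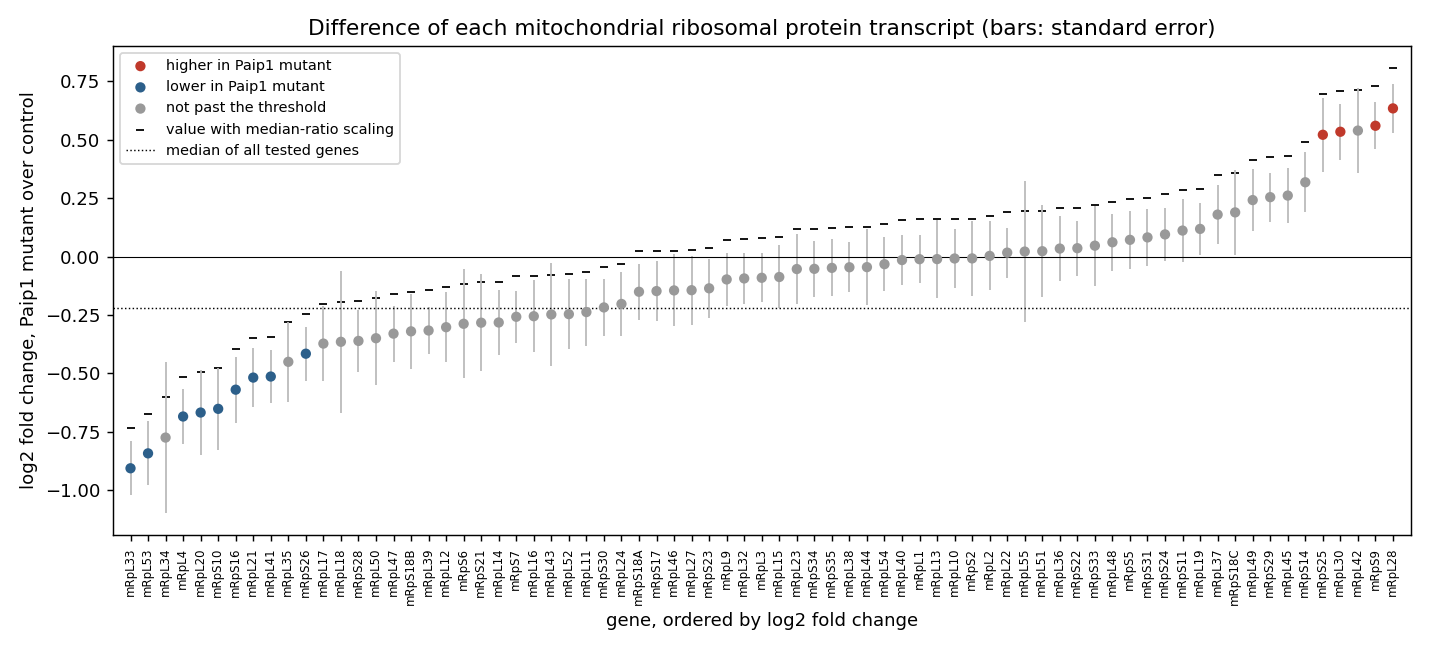
Log2 fold change (Paip1 mutant over control) of each of the 73 members, ordered by size, with the standard error as bars and the members past adjusted p of 0.05 in colour. The 9 members that fell lie between −0.91 and −0.42, the 4 that rose between 0.52 and 0.63, and the 60 others fill the space between and around them.

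Among the large subunit proteins, 6 members fell. The largest fall was that of mRpL33, the shortest member with 192 coding nucleotides, whose bacterial counterpart is a small protein near the tRNA exit site. Its gene occupies chromosome X from 4321764 to 4322231, minus strand (dm6). mRpL33 was at 73.9 and 76.9 TPM in the mutant libraries, against 133 and 152 TPM in the control libraries. Both mutant libraries were far below both control libraries. The log2 fold change was −0.91 with a standard error of 0.12 (limma adjusted p = 0.00462), and the call held with median-ratio scaling and without each library in turn.

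mRpL53, a large subunit protein with no bacterial counterpart, was at 20.3 and 17.5 TPM in the mutant libraries, against 37.2 and 32.2 TPM in the control libraries. It was among the lowest members, and its groups lay well apart. Its log2 fold change was −0.84 with a standard error of 0.14 (limma adjusted p = 0.00879), and the call held without each library in turn. It is encoded on chromosome 2R at 13954195 to 13955664, plus strand, and all of its exons fall within those of CG33155 on the same strand. CG33155 had 20.8 ± 2.29 TPM in mutant discs and 36.3 ± 3.28 TPM in control discs (SD, n = 2 each, limma adjusted p = 0.0108). How reads were divided between the 2 genes was not stated, so the fall of mRpL53 is not certain to be its own. No other called member lay within another gene on its own strand to this extent.

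mRpL4, whose bacterial counterpart lines the tunnel through which the new chain leaves the ribosome, was at 35.6 and 32.1 TPM in the mutant libraries, against 52.7 and 57.2 TPM in the control libraries. It is encoded on chromosome 2L at 16328059 to 16329132, minus strand. Its log2 fold change was −0.68 with a standard error of 0.12 (limma adjusted p = 0.0102), and 0.0708 without control replicate 2. With mRpL33 and mRpL53 it made up the large subunit members that fell by the most in the mutant.

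The other 3 large subunit members that fell were mRpL20, mRpL21 and mRpL41. mRpL20, whose bacterial counterpart is needed for the first steps of large subunit assembly, was at 39.7 and 55.9 TPM in mutant libraries and at 78.3 and 72.8 TPM in control libraries (log2 fold change −0.67, limma adjusted p = 0.0354). Its mutant libraries differed widely from each other, and both lay below the controls. The adjusted p was 0.117 without control replicate 1 and 0.0787 without control replicate 2.

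mRpL21, the counterpart of bacterial L21, was at 35.8 and 30.4 TPM in mutant libraries and at 49.2 and 46.2 TPM in control libraries (log2 fold change −0.52, limma adjusted p = 0.0266). The groups lay apart, but the call was lost with median-ratio scaling (adjusted p = 0.111), and it was also lost when control replicate 1 (0.1498) or control replicate 2 (0.103) was left out. mRpL41, which has no bacterial counterpart, was at 32.4 and 35.3 TPM in mutant libraries and at 47.2 and 50.3 TPM in control libraries (log2 fold change −0.51, limma adjusted p = 0.0195). Its adjusted p was 0.0930 without control replicate 1 and 0.148 without control replicate 2. mRpL20 and mRpL21 lie on chromosome 3L, at 13017149 to 13017867 and at 19253290 to 19255061, both on the minus strand, and mRpL41 lies on 2R at 15217024 to 15217617, minus strand.

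Among the small subunit proteins, 3 members fell. mRpS10, a protein of the head of the subunit, was at 56.8 and 70.03 TPM in the mutant libraries, against 87.9 and 113 TPM in the control libraries. The spread within each group was wide, and the groups did not overlap. Its log2 fold change was −0.65 with a standard error of 0.18 (limma adjusted p = 0.0335). The adjusted p was 0.0877 without mutant replicate 1 and 0.173 without control replicate 2. It is encoded on chromosome 3R at 15229665 to 15230516, plus strand.

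mRpS16, whose bacterial counterpart helps the body of the small subunit to assemble, was at 57.8 and 66.6 TPM in the mutant libraries, against 84.7 and 101 TPM in the control libraries. Both mutant libraries were below both controls, and the log2 fold change was −0.57 with a standard error of 0.14 (limma adjusted p = 0.0271). The adjusted p was 0.0664 without mutant replicate 1, and it was 0.0556 and 0.181 when control replicates 1 and 2 were omitted in turn. The gene lies on 2R at 14172986 to 14173596, minus strand.

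mRpS26, which has no bacterial counterpart, was one of the members just inside the threshold, with 48.2 and 48.3 TPM in the mutant libraries and 60.7 and 68.8 TPM in the control libraries (log2 fold change −0.42, limma adjusted p = 0.0367). Its mutant libraries were nearly equal. The call was lost with median-ratio scaling (adjusted p = 0.109), and without each library in turn the adjusted p lay between 0.0542 (without mutant replicate 2) and 0.295 (without control replicate 2). The gene lies on 3L at 18106579 to 18107499, plus strand.

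The 4 members that rose were mRpL28 and mRpL30 of the large subunit and mRpS9 and mRpS25 of the small subunit. mRpL28, the counterpart of bacterial L28, was at 80.3 and 76.7 TPM in the mutant libraries, against 50.6 and 49.7 TPM in the control libraries. The libraries of each group were close to each other and the groups lay far apart. The log2 fold change was 0.63 with a standard error of 0.10 (limma adjusted p = 0.00886) and was 0.81 with median-ratio scaling. Without control replicate 1 the adjusted p was 0.0613, and without control replicate 2 it was 0.0708. Chromosome 2L carries the gene at 4973976 to 4975316, plus strand.

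mRpS9, whose bacterial counterpart has a tail that reaches the tRNA in the P site, was at 78.02 and 78.2 TPM in the mutant libraries, against 52.5 and 52.7 TPM in the control libraries. The libraries of each group were nearly equal. Its log2 fold change was 0.56 with a standard error of 0.10 (limma adjusted p = 0.0116) and was 0.73 with median-ratio scaling. The adjusted p was 0.0916 without control replicate 1 and 0.0926 without control replicate 2. The gene lies on chromosome 3R at 7889277 to 7902667, minus strand.

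mRpL30 was at 136 and 145 TPM in the mutant libraries, where it was the highest member, against 90.1 and 103 TPM in the control libraries. The highest member was mRpL33 in control replicate 1 and mRpL12 in control replicate 2. The log2 fold change of mRpL30 was 0.53 with a standard error of 0.12 (limma adjusted p = 0.0201). It came to 0.163 when control replicate 1 was left out and to 0.0665 when control replicate 2 was. The gene lies on chromosome X at 4647871 to 4648646, plus strand, and encodes the counterpart of bacterial L30.

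mRpS25, a small subunit protein with no bacterial counterpart, was at 81.7 and 93.3 TPM in the mutant libraries, against 53.5 and 68.4 TPM in the control libraries. Its log2 fold change was 0.52 with a standard error of 0.16, just inside the threshold (limma adjusted p = 0.0466). The call was lost when any library was left out. The adjusted p was 0.0525 when mutant replicate 1 was omitted, 0.108 for mutant replicate 2, 0.266 for control replicate 1 and 0.0544 for control replicate 2. It is encoded on chromosome X at 14582136 to 14582982, minus strand.

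**Figure D3:**
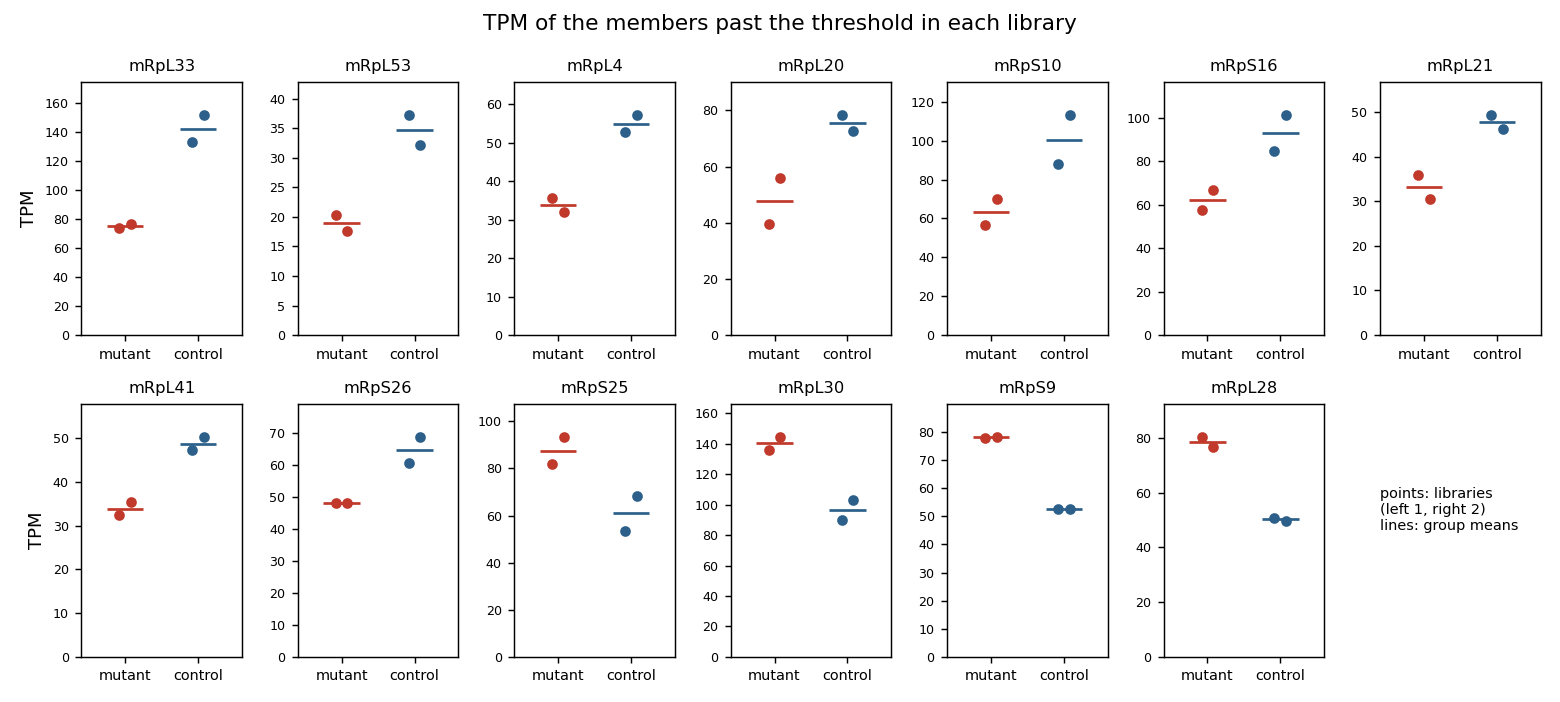
TPM in each library of the 13 members past the threshold, with the mutant libraries on the left and the control libraries on the right of each panel and each axis starting at 0. In every panel the groups do not overlap. mRpL33 shows the largest fall (75.4 ± 2.12 TPM in mutant discs and 142 ± 13.1 TPM in control discs), and mRpL28 the largest rise (78.5 ± 2.50 TPM in mutant discs and 50.2 ± 0.622 TPM in control discs).

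The members nearest to the threshold on the other side were mRpL39 and mRpL42, large subunit proteins with no counterpart in bacterial ribosomes. mRpL39 was at 51.3 and 52.4 TPM in the mutant libraries, against 64.2 and 65.5 TPM in the control libraries (log2 fold change −0.32, limma adjusted p = 0.0549). mRpL42 was at 114 and 111 TPM in the mutant libraries, against 64.6 and 91.7 TPM in the control libraries (log2 fold change 0.54, limma adjusted p = 0.0625). For mRpL42 the log2 fold change was as large as for the members that rose, but its control libraries differed widely from each other. It passed with median-ratio scaling (adjusted p = 0.0278), as did mRpL37, mRpL45, mRpS14 and mRpS29, all 5 in the direction of a rise. mRpS29 is the counterpart of human DAP3, a GTP-binding protein.

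In TPM as deposited, the 5 members with the smallest log2 fold change were mRpL1, mRpL2, mRpL10, mRpL13 and mRpS2. With median-ratio scaling these 5 were at 0.16 to 0.18, and others were nearer to 0, among them mRpS18A (0.023) and mRpS17 (0.024). mRpL2, the counterpart of a protein near the peptidyl transferase centre, was at 52.1 and 55.7 TPM in mutant libraries and at 47.8 and 60.4 TPM in control libraries. mRpL1, the counterpart of the protein of the mobile stalk beside the tRNA exit site, was at 48.1 and 46.5 TPM in mutant libraries and at 47.8 and 47.6 TPM in control libraries. For all 5 the groups overlapped. For mRpL13, 35.2% of the exon length is shared on the same strand with CG10602. The widest spread within the mutant group was that of mRpL34, named here after its values were seen. It was at 41.7 and 82.0 TPM in mutant libraries and at 92.3 and 110.1 TPM in control libraries (log2 fold change −0.77, standard error 0.32, limma adjusted p = 0.102).

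The large and the small subunit did not stand apart in these counts. Of the 47 mRpL genes 2 rose and 6 fell (4.26% and 12.8%), with a median log2 fold change of −0.093. Of the 26 mRpS genes 2 rose and 3 fell (7.69% and 11.5%), with a median of −0.050. Over all genes tested 15.6% rose and 29.1% fell, with a median of −0.22. The mammalian structure places the counterparts of mRpS18A and mRpS30 in the large subunit. Neither of these passed the test. Of the 43 members with a bacterial counterpart 3 rose and 6 fell, with a median of −0.14, and of the 30 members added in mitochondria 1 rose and 3 fell, with a median of −0.045. The difference between these classes was not tested. With median-ratio scaling all 4 medians were above 0, and that of all genes tested was −0.053. They were 0.077 for mRpL, 0.12 for mRpS, 0.030 for members with a bacterial counterpart and 0.13 for those added in mitochondria.

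Coding length ran from 192 to 1671 nucleotides among the members, and the shortest ones held most of the falls. Among the 25 shortest members, with 192 to 522 coding nucleotides, 1 rose and 6 fell. Among the 23 of middle length 1 rose and 2 fell (4.35% and 8.70%). Among the 25 longest, with 741 to 1671 coding nucleotides, 2 rose and 1 fell (8.0% and 4.0%). Other protein-coding genes in the same length ranges rose in 14.6%, 15.3% and 14.3% of cases and fell in 30.1%, 27.4% and 30.9%. In each range the members were thus called less often than these genes in both directions, and the share of falls came nearest to theirs among the shortest. Across the members Spearman's rho between coding length and log2 fold change was 0.23 (73 genes), and across all tested protein-coding genes it was 0.018 (8047 genes). Both are descriptions across genes of the same 4 libraries, and genes are not replicates. The short members also varied more within groups than the longest members. Their median coefficient of variation was 10.04% in mutant discs and 12.4% in control discs, against 6.47% and 5.75% for the longest members. Other protein-coding genes in the short range had 12.1% and 10.3%, and those in the long range 10.7% and 7.21%. Without control replicate 1, 3 of the shortest and 1 of the longest members were called lower. Without control replicate 2, 2 of the shortest and 0 of the longest were.

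**Figure D4:**
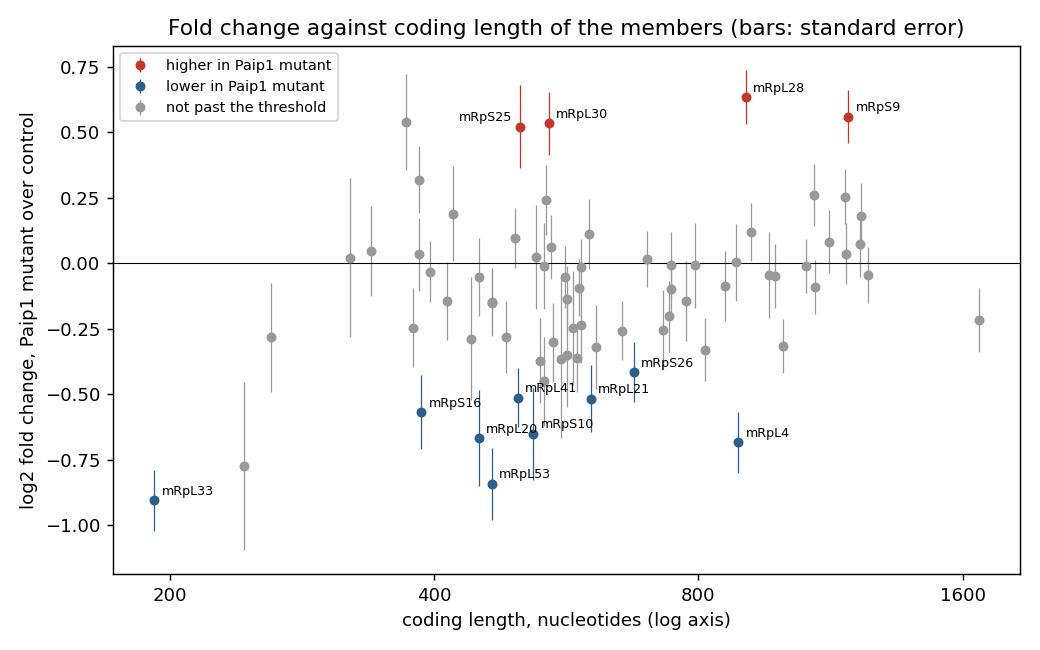
Log2 fold change (Paip1 mutant over control) against coding length in nucleotides on a log axis, for the 73 members, with the standard error as bars and the members past the threshold in colour. Of the 9 members that fell 6 have at most 522 coding nucleotides, with mRpL33 (192 nucleotides, −0.91) at the far left.

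Replicates of 1 group differed in a direction that most members shared. In the mutant group 58 of 73 members were higher in replicate 2 than in replicate 1, with a median log2 difference of 0.13, close to the 0.12 of all genes tested. In the control group 63 of 73 members were higher in replicate 2, with a median log2 difference of 0.18, against 0.025 for all genes tested. The shift between the control libraries was thus larger than the median difference between the groups. The salivary gland and fat body markers, given above, also set control replicate 1 apart from control replicate 2, and the part of either in the members' levels was not tested. Across the 73 members Pearson's r of the log2 levels was 0.915 between the mutant libraries and 0.951 between the control libraries, and it was 0.765 to 0.846 between libraries of different groups. The members' levels thus correlated more closely within a group than between groups, as a description across genes that are not replicates. The same held over all genes tested, with 0.978 and 0.984 within groups and 0.861 to 0.886 between groups.

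Many of these genes lie close to others. In the Ensembl annotation of dm6, 43 of the 73 members share exon sequence with another gene, 42 of them on the opposite strand and 8 over more than 20% of their exon length. Whether the counting used strand was not stated, and without strand the reads of overlapping genes cannot be told apart. Tail-to-tail neighbours that overlap a member were tested in 34 pairs, and 1 neighbour rose and 14 fell. Over all genes tested 15.6% rose and 29.1% fell. Of the 4 members that rose, 3 overlap a neighbour that fell. The other tail-to-tail neighbours that fell lie beside members that did not pass, and a link between the 2 was not tested. Gmd, the neighbour of mRpL28, had 27.6 ± 1.80 TPM in mutant discs and 62.8 ± 5.87 TPM in control discs (SD, n = 2 each, limma adjusted p = 0.00277). Torsin, the neighbour of mRpL30, had 73.6 ± 6.42 TPM in mutant discs and 122 ± 7.16 TPM in control discs (limma adjusted p = 0.00911). CG14414, the neighbour of mRpS25, had 32.3 ± 1.85 TPM in mutant discs and 45.2 ± 4.19 TPM in control discs (limma adjusted p = 0.0311). These 3 members thus moved against their neighbours, with overlaps of 1.5%, 7.9% and 6.1% of their exon length. For mRpS9 the overlapping ArgRS-m was at 7.78 TPM in mutant discs and 7.84 TPM in control discs. Among the members that fell, mRpL53 also overlaps AGO1 on the opposite strand, which fell too (log2 fold change −0.54). The overlapping neighbours of mRpL4, mRpS16 and mRpL41 did not pass.

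In the authors' deposited table, 8 members had an adjusted p under 0.05 with a positive log2 fold change and 3 with a negative one, against 19.9% and 20.8% of the genes tested. The authors' deposited table marks 0 members as significant, and the genes it marks all have a log2 fold change of at least 1.00 in size. The median log2 fold change of the members in the authors' deposited table was 0.084. It gives mRpL28 a log2 fold change of 0.82 (adjusted p = 1.02e-06), mRpS9 one of 0.74 (adjusted p = 8.94e-07) and mRpL30 one of 0.72 (adjusted p = 3.65e-05). Of the 13 members called by limma, 7 were also called in the authors' deposited table. Those that it did not call all fell in limma. In the authors' deposited table mRpL33, the largest fall, had a log2 fold change of −0.71 and an adjusted p of 0.0736. The authors' deposited table gives an adjusted p of 0.111 for mRpL20, 0.154 for mRpS16, 0.186 for mRpL21, 0.291 for mRpL41 and 0.313 for mRpS26.

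Other parts of the mitochondrial translation apparatus were looked at from lists. Outside the mRpL and mRpS names, 5 further mitochondrial ribosomal proteins were tested, of which 0 rose and 2 fell. One of the 2 that fell was tko, which encodes the protein S12 of the decoding centre and whose mutants are sensitive to mechanical shock. tko was at 45.8 and 58.8 TPM in mutant libraries and at 73.4 and 89.2 TPM in control libraries (log2 fold change −0.63, limma adjusted p = 0.0347). Its groups did not overlap, but the adjusted p was 0.0525 with a common sum, 0.0801 without mutant replicate 1, and 0.0514 and 0.168 when control replicates 1 and 2 were omitted in turn. bonsai, which encodes the protein S15, was at 56.3 and 57.2 TPM in mutant libraries and at 53.8 and 51.7 TPM in control libraries (log2 fold change 0.10, limma adjusted p = 0.438). The other that fell was CG13126, at 9.63 and 9.27 TPM in mutant libraries and 12.7 and 14.4 TPM in control libraries (limma adjusted p = 0.0340). Its call was lost with median-ratio scaling (adjusted p = 0.106) and on omission of any library, with values from 0.0625 (mutant replicate 1) to 0.233 (control replicate 2).

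Of 10 mitochondrial translation factors 1 rose and 3 fell, where 15.6% of all genes tested rose and 29.1% fell. The share of the factors that fell was thus close to that of all genes tested. The initiation factor mIF3 was at 9.42 and 9.67 TPM in mutant libraries and at 15.4 and 17.6 TPM in control libraries (log2 fold change −0.73, limma adjusted p = 0.0108, and 0.0729 without control replicate 2). Of the elongation factors, mEFTu1 rose and mEFTs fell, while mEFTu2 and mEFG1 did not pass. mEFTu1, which carries aminoacyl-tRNA to the ribosome, was at 156 and 143 TPM in mutant libraries and at 110 and 110 TPM in control libraries (log2 fold change 0.44, limma adjusted p = 0.0252). mEFTs, which reloads it with GTP, was at 44.6 and 46.0 TPM in mutant libraries and at 65.9 and 62.1 TPM in control libraries (log2 fold change −0.49, limma adjusted p = 0.0187). The adjusted p of mEFTu1 was 0.0517 without mutant replicate 1, and 0.162 and 0.176 when control replicates 1 and 2 were omitted in turn. That of mEFTs was 0.154 and 0.107 under these omissions of control replicates 1 and 2. The release factor mRF1 was the third that fell (limma adjusted p = 0.0383), and it lost the call with median-ratio scaling (adjusted p = 0.0823) and on omission of any library, with values from 0.0791 (mutant replicate 2) to 0.269 (control replicate 2). Without control replicate 2, 0 of the 10 factors were called in either direction.

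Of 17 mitochondrial aminoacyl-tRNA synthetases 1 rose and 0 fell (5.88% and 0%, against 15.6% and 29.1% of all genes tested). It was LeuRS-m, which charges the leucine tRNA, with 16.1 and 16.6 TPM in mutant libraries and 9.35 and 10.4 TPM in control libraries (log2 fold change 0.67, limma adjusted p = 0.0121, and 0.0777 without control replicate 1). Of 16 import and chaperone genes tested 1 rose and 0 fell (6.25% and 0%). It was Lon, a protease of the mitochondrial matrix, with 51.8 and 56.7 TPM in mutant libraries and 29.6 and 29.3 TPM in control libraries (log2 fold change 0.86, limma adjusted p = 0.00464). The Lon call held without each library in turn.

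Of 12 regulators of growth and of mitochondrial biogenesis 2 rose and 5 fell, where 15.6% and 29.1% of all genes tested did. Ets97D, the fly counterpart of the GABPA subunit of nuclear respiratory factor NRF-2, was at 17.6 and 17.5 TPM in mutant libraries and at 29.7 and 30.4 TPM in control libraries (log2 fold change −0.74, limma adjusted p = 0.00634). Dref, a transcription factor of replication and growth genes, was at 37.2 and 48.2 TPM in mutant libraries and at 82.9 and 91.0 TPM in control libraries (log2 fold change −1.02, limma adjusted p = 0.00766). Both calls held without each library in turn and with median-ratio scaling. ewg, the counterpart of nuclear respiratory factor NRF-1, was at 26.0 and 25.2 TPM in mutant libraries and at 43.8 and 38.0 TPM in control libraries (log2 fold change −0.65, limma adjusted p = 0.0125, and 0.0896 without control replicate 1). The others that fell were mTor and srl, the fly PGC-1 coactivator, of which srl lost the call with median-ratio scaling (adjusted p = 0.0763). mTor no longer passed without control replicate 1 (adjusted p = 0.116), and srl did not without mutant replicate 1 (0.0717), control replicate 1 (0.207) or control replicate 2 (0.152). crc, the fly ATF4, rose to 1099 and 1051 TPM in mutant libraries, against 760 and 642 TPM in control libraries (log2 fold change 0.62, limma adjusted p = 0.0142, and 0.0896 without control replicate 2). The other that rose was cnc, whose adjusted p was 0.116 without control replicate 1 and 0.177 without control replicate 2. Of these genes mTor, srl and cnc are named after their values were seen. Without mutant replicate 2, 7 of the 12 were called lower, without control replicate 1 the counts were 1 higher and 2 lower, and without control replicate 2 they were 0 higher and 4 lower.

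The cytosolic ribosome gave other counts than the mitochondrial one. Of 84 cytosolic ribosomal protein genes tested 2 rose and 44 fell (2.38% and 52.4%, against 15.6% and 29.1% of all genes tested). Their median log2 fold change was −0.34, against −0.090 for the 73 mitochondrial members and −0.22 for all genes tested. With median-ratio scaling 2 were higher (background 20.3%) and 6 lower (background 20.2%), with a median of −0.17. Without control replicate 1, 10 were called lower, and without control replicate 2, 7 were. Of 66 nuclear-encoded subunits and assembly factors of the respiratory chain 2 rose and 13 fell (3.03% and 19.7%), with a median of −0.13. With median-ratio scaling 7 were higher and 10 lower, with a median of 0.046. Fewer of these were called lower without either control library, and without control replicate 2 the calls no longer lay mostly on the lower side. Their median was −0.28 without control replicate 1 and −0.020 without control replicate 2, against −0.24 and −0.19 for all genes tested. The differences between these lists were not tested.

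**Figure D5:**
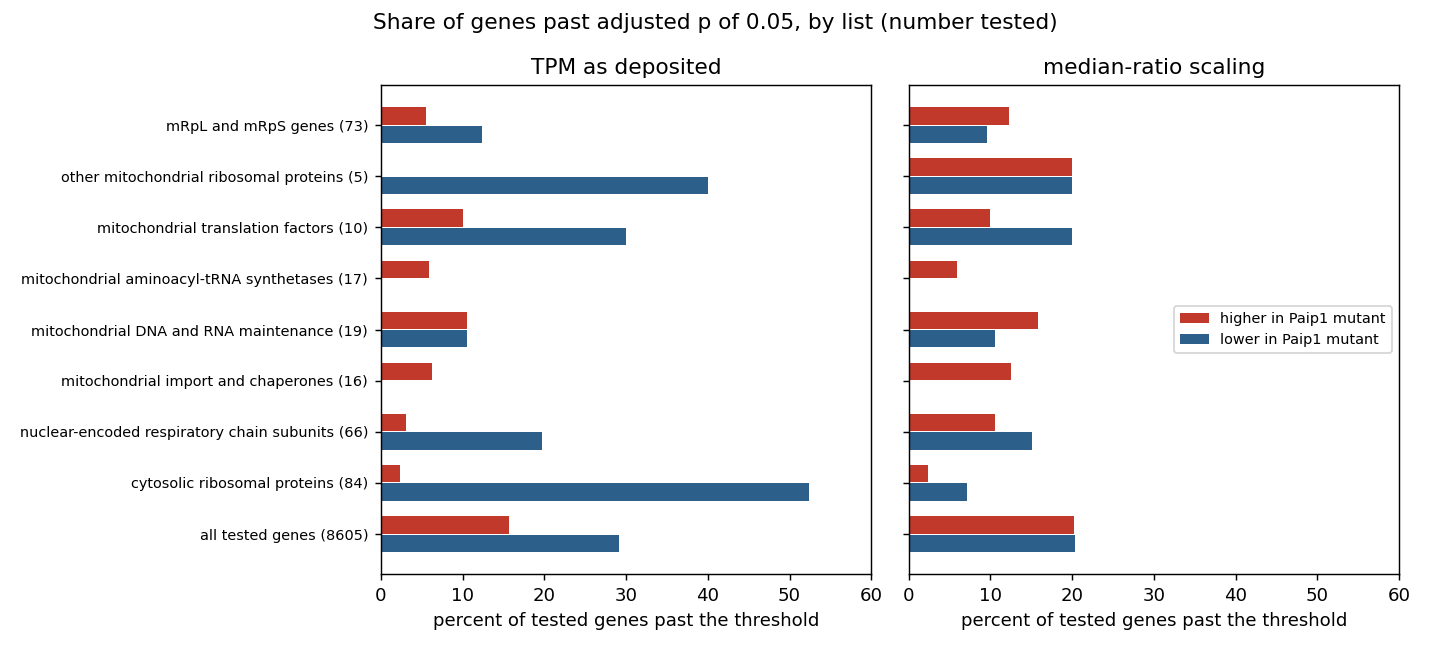
Percent of the tested genes of each list past adjusted p of 0.05, higher and lower in the Paip1 mutant, in TPM as deposited and with median-ratio scaling, with the number tested beside each name. For the 73 members the shares are 5.48% higher and 12.3% lower as deposited, below the 15.6% and 29.1% of all genes tested. The cytosolic ribosomal proteins show the largest change with the scaling, with 44 called lower as deposited and 6 with median-ratio scaling.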

How the data were processed

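RNA was extracted with Trizol and sequenced on an Illumina HiSeq instrument, per the labels. The authors deposited 1 table of values for each gene in each library, scaled within the library. The deposited values were taken as TPM, since they are not whole and their sums reach 91.9% to 99.7% of the nominal TPM total. The authors also deposited group means, a fold change (ratio), its log2 value and p-values, per the file headers. The submitters' processing notes name TopHat, RSEM, DESeq, FastQC and build dm6. Read assignment, strand and filters were not given in the sources used here. Reads and depth cannot be recovered from TPM, so no counting error is given. A gene that takes much of a library lowers the others in TPM.

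limma 3.58.1 (R 4.3.3) was run on log2(TPM + 1), two-sided, over the 8605 genes that reached 1 TPM in 2 or more libraries, so fold changes of low genes are understated. All 73 members passed this filter. There were 2 residual degrees of freedom and a prior of 3.27. Levels are means ± SD over 2 libraries. The script was tested on simulated data. Coordinates and overlaps are from Ensembl annotation 115 (dm6), where 71 members matched by ID and 2 by name (mRpS5 and mRpS34). Bacterial counterparts were assigned from general knowledge of mitoribosome nomenclature. No 2 libraries held the same values, and 0 numeric columns were unassigned. Members, gene lists and tests were chosen with earlier results of these data known. Members named with values were the up to 8 with the largest difference in each direction among those called, the 5 with the highest mean, the 5 with the smallest difference, the 2 on each side of the threshold, and mRpL12. Of each other list up to 4 called genes with the smallest p were eligible. The alternatives were 2 other scalings, a pseudocount of 0.1, no filter, a mean of at least 5 TPM, a variance prior that does not follow the mean, a replicate block and the omission of each library.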

Additional observations from a re-analysis of the deposited data

How the results depend on the processing

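The number of members called higher was 4 as reported, 9 with median-ratio scaling and 7 with a common sum; the number called lower was 9, and 7 and 5 under these scalings. The median log2 fold change of the members was −0.090, and 0.081 with median-ratio scaling. Leaving out 1 library gave 0 to 4 members higher, 2 to 15 lower, a median between −0.20 and −0.033 and 1828 to 3870 genes called over the whole table; the lone library of a group is then taken to vary like the other group. A pseudocount of 0.1 and a mean of at least 5 TPM left both counts at 4 and 9, no filter (13667 genes tested) gave 3 and 7, and the variance prior that does not follow the mean gave 3 and 7. With a replicate block 5 members were higher and 13 lower, and all 13 calls were kept; over all genes tested 1403 were higher and 2843 lower, against 1346 and 2506 without it. The block added mRpL17, mRpL34, mRpL35, mRpL42 and mRpS28. Deviations of same-numbered libraries from their group means correlated at 0.065 over all genes tested and at 0.34 over the members. With 2 pairs the numbers were not taken to pair the samples. No named value changed direction while called. The precision rests on 2 libraries per group, and depth is unknown, so small differences of single members were not detectable here.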

Other observations

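Of 19 genes of mitochondrial DNA and RNA maintenance 2 rose and 2 fell (10.5% each, against 15.6% and 29.1% of all genes tested). PNPase, which degrades and processes RNA in mitochondria and is listed as CG11337, was at 3816 and 2951 TPM in the mutant libraries, against 37.4 and 31.3 TPM in the control libraries (log2 fold change 6.57, limma adjusted p = 4.43e-05). It was higher in both mutant libraries by far more than any member of the mitochondrial ribosome. scu, a dehydrogenase that is also a subunit of mitochondrial RNase P, was at 126 and 133 TPM in mutant libraries and at 222 and 234 TPM in control libraries (log2 fold change −0.81, limma adjusted p = 0.00461). Both calls held without each library in turn and with median-ratio scaling. For the whole list the counts were 1 higher and 1 lower on omission of mutant replicate 1, 1 higher and 3 lower for mutant replicate 2, 1 higher and 2 lower for control replicate 1, and 2 higher and 1 lower for control replicate 2. TFAM, which packs mitochondrial DNA, was at 81.4 and 102 TPM in mutant libraries and at 111 and 138 TPM in control libraries (limma adjusted p = 0.0873). Of 13 mitochondrially encoded genes tested 0 rose and 1 fell (0% and 7.69%). It was mt:ND3, a subunit of complex I, with 283 and 273 TPM in mutant libraries and 428 and 359 TPM in control libraries (log2 fold change −0.50, limma adjusted p = 0.0277). The mt:ND3 value was 0.110 with median-ratio scaling and 0.0548 with a common sum, and it was 0.0521, 0.207 and 0.0612 on omission of mutant replicate 2, control replicate 1 and control replicate 2. Of these 13 genes 4 were called lower when mutant replicate 1 was left out and 7 with a replicate block. With median-ratio scaling 1 was called higher and 0 lower, and the call was also on the higher side when control replicate 1 was left out. It was mt:srRNA, the RNA of the small mitochondrial ribosomal subunit, named here after its values were seen. Its limma adjusted p was 0.0488 with median-ratio scaling and 0.0572 with a common sum. The RNA of the large subunit, mt:lrRNA, did not pass with median-ratio scaling (limma adjusted p = 0.905).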
